A study of Homo sapiens with 2 samples.

Results

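TNRC18 is a protein-coding gene on the minus strand of chromosome 7, and the peaks described here are the MSI2 CLIP-seq peaks listed under its Ensembl ID, ENSG00000182095.10. They were found by taking every peak whose name carries that ID. This gave 26 of the 25920 peaks of replicate 1 and 36 of the 25243 peaks of replicate 2. The gene was chosen by its measured peaks, which are many, recur in both lists and are spread over a long span. Its number of peaks, their recurrence and their spread are therefore a description with no test. MSI2 is Musashi-2, and CLIP-seq crosslinks a protein to the RNA it touches with ultraviolet light, recovers it with an antibody and sequences the bound fragments. Both libraries came from NB4, an established human acute promyelocytic leukaemia cell line, crosslinked at 400 mJ per square centimetre on ice, and they are replicates of 1 group. Libraries made without the MSI2 antibody, from input RNA or from cells lacking MSI2 were not analysed here, so MSI2 binding and repeatable background cannot be told apart at any site below. The labels do not say that the libraries came from separate cultures.

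Musashi proteins are RNA-binding proteins with a pair of RNA recognition motifs that favour short sequences containing UAG, and they regulate the translation and stability of messenger RNAs. In blood, MSI2 is known for its role in stem cells and in myeloid leukaemia. TNRC18 takes its name from trinucleotide repeats in its sequence. It encodes a large nuclear protein with a BAH domain, which has been reported to read a repressive methylation mark of histone H3 and to take part in silencing endogenous retroviruses. No base sequence is printed for the peaks, because no genome of their build was used here.

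Every peak name ends in a whole number of 3 or more, called the tally here. Peaks of higher tally tended to have a lower p, with a Spearman rho across the TNRC18 peaks of -0.96 in replicate 1 and -0.92 in replicate 2, but the order was not strict. What the tally counts is not stated, and the total depth of each library is not given. All tallies of a list sum to 155598 in replicate 1 and 133644 in replicate 2, which measures what was called as peaks. The p of a peak is the authors' own, as deposited. Positions are of build hg19, counted from 1.

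TNRC18 carried peaks over 83.6 kb, from 5346658 to 5430258. Since the gene lies on the minus strand, the highest position is the 5' end of this span and the lowest is the 3' end. Both libraries reached nearly the same limits, with replicate 1 spanning 5346658 to 5430237 and replicate 2 spanning 5346767 to 5430258. None of the intervals was also listed under another gene ID, and no peak of another ID on either strand fell inside the span in either list. In replicate 1 the running numbers of the TNRC18 peaks go from 0 to 26, and number 10 has no peak in the list analysed here. In replicate 2 they go from 0 to 35 with no gap.

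Among all gene IDs, TNRC18 stood 6th by number of peaks in replicate 1, tied with 1 other ID, and 4th in replicate 2, also tied with 1 other. The median gene ID had 2 peaks in each list. By summed tally it stood 62nd in replicate 1 and 8th in replicate 2. By its largest single tally it stood only 540th and 244th. TNRC18 had many peaks of modest tally. The tallies spanned 3 to 18 for replicate 1 and 3 to 22 for replicate 2, while the lists reached 92 and 106. The peaks covered 1156 nt in replicate 1 and 1317 nt in replicate 2. Their median width was 42 nt in replicate 1 and 38.5 nt in replicate 2, close to the 42 and 39 nt of the whole lists. The narrowest was a single base, at 5372015 in replicate 1, which touched the next peak end to end. The widest covered 123 nt, from 5346757 to 5346879, also in replicate 1.

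**Figure D1:**
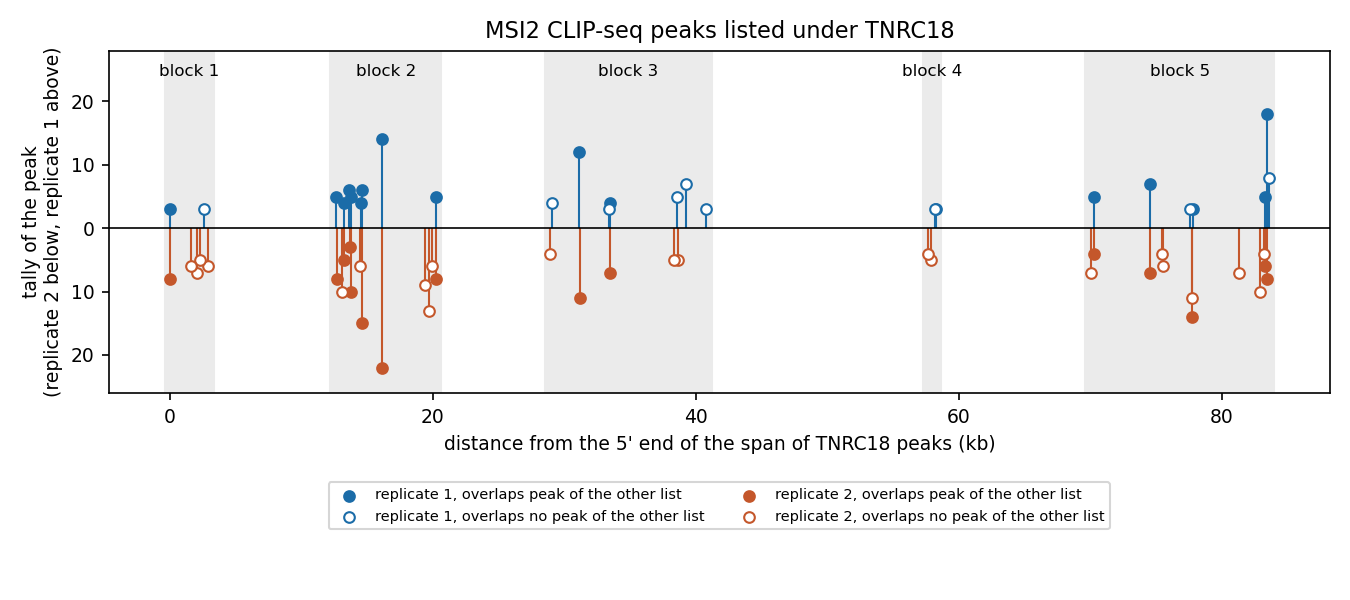
Peaks listed under TNRC18 by distance from the 5' end of their span (kb, horizontal axis) and tally (vertical axis), with replicate 1 above the line and replicate 2 below it. Filled points overlap a peak of the other list and open points do not. The peaks fall into 5 blocks (grey), and the highest tallies are 18 in replicate 1, at the 3' end, and 22 in replicate 2, at 16.2 kb.

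Peaks of the 2 lists that overlapped by at least 1 nt, under the same gene ID and strand, are called shared. In replicate 1, 16 of the 26 TNRC18 peaks were shared, or 61.5% (95% Wilson interval 42.5% to 77.6%), beside 35.5% of all peaks in that list. In replicate 2, 15 of the 36 were shared, or 41.7% (27.1% to 57.8%), beside 36.9% of all peaks. These intervals cover counting error only and treat the peaks of 1 gene as independent, which was not shown. Recurrence was part of the choice of the gene, so nothing is read from the gap to the whole list. The counts differ because a single peak of replicate 2 met a touching pair in replicate 1. By the number of shared peaks in replicate 1, TNRC18 stood 4th among the 3983 gene IDs that had any, where the median was 2. The count rests on thin overlaps and low tallies in part: a reciprocal overlap of 50% left 8 shared peaks in replicate 1 and rank 19, and a tally of 5 or more in both lists left 9 and rank 21. Shared peaks held 71.6% of the TNRC18 tally in replicate 1, at 106 of 148. In replicate 2 they held 49.3%, at 136 of 276. The same parts over all peaks of the lists were not computed, so these are not read as high or low.

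The positions grouped into 5 blocks separated by gaps of over 5 kb, a limit chosen after seeing the positions. Blocks are numbered from the 5' end. Block 2, 7.65 kb long from 5410009 to 5417653, held the most shared peaks. All 8 of its peaks in replicate 1 were shared, against 7 of 12 in replicate 2. Block 5, at the 3' end from 5346658 to 5360232, had 5 shared of 7 peaks in replicate 1 and 5 shared of 12 in replicate 2. Block 3, from 5389450 to 5401327, had 2 shared of 7 in replicate 1 and 2 shared of 5 in replicate 2. At the 5' end, block 1, from 5427318 to 5430258, had 1 shared of 2 and 1 shared of 5. Block 4, only 0.574 kb long from 5372015, had 2 peaks in each list and none shared. The longest stretch with no peak in either list was the 16.9 kb between blocks 3 and 4. No exon positions of this build were used, so the blocks are not set against the exons and introns of TNRC18.

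The strongest TNRC18 site of the span in replicate 2 lay in block 2. It covered 5414074 to 5414118 in replicate 1, with a tally of 14, and 5414073 to 5414117 in replicate 2, with a tally of 22. Both peaks were 45 nt wide, shifted by a single base, and had the lowest p of any TNRC18 peak in their list, 1.85e-11 in replicate 1 and 2.14e-19 in replicate 2. No other TNRC18 peak of either list lay within 1 kb of it. Its boundaries were nearly the same in both libraries, while its tally was higher in replicate 2.

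The next sites of block 2 lay between 5415664 and 5417653, a run of 6 peaks in replicate 1 and 7 in replicate 2 within 1.99 kb. A peak of replicate 2 from 5415664 to 5415706, which had a tally of 15 (p 1.19e-10), was matched in replicate 1 by a touching pair from 5415665 to 5415683 and from 5415684 to 5415707, with tallies of 6 and 4. Further toward the 5' end, a peak at 5416494 to 5416537 had a tally of 5 in replicate 1, and its partner at 5416490 to 5416530 had 10 in replicate 2. Its neighbour at 5416576 to 5416626 ran the other way, with 6 in replicate 1 and 3 in replicate 2. This match was thin, since the peak of replicate 2 was 4 nt wide.

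The last pairs of this run had tallies of at most 8. Both lists had a peak starting at 5417002, of 17 nt and a tally of 4 in replicate 1 and of 13 nt and a tally of 5 in replicate 2. A peak at 5417598 to 5417653 in replicate 1, with a tally of 5, met one at 5417560 to 5417607 in replicate 2, with a tally of 8, over 10 nt. At the other side of the block, the pair at 5410009 to 5410063 and 5410021 to 5410064 had tallies of 5 and 8, and the centres of their inner intervals coincided. The inner interval is a short stretch of at most a few bases that the files give within each peak.

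At the 3' end of the span, the libraries placed their weight differently. The highest tally of replicate 1 was 18, in the peak at 5346757 to 5346879, with a p of 1.65e-09. The peak of replicate 2 at this site was narrower, 43 nt from 5346767 to 5346809, and had a tally of 8. Next to it, peaks at 5346955 to 5346978 and 5346952 to 5346984 had tallies of 5 in replicate 1 and 6 in replicate 2. The reverse order was seen further into the block, where a peak at 5352442 to 5352487 had a tally of 3 in replicate 1 and its partner at 5352444 to 5352512 had 14 in replicate 2.

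Other pairs of this block were alike in tally. A peak at 5355667 to 5355704 in replicate 1 and 5355668 to 5355702 in replicate 2 had a tally of 7 in each, with inner intervals 1 nt apart. The pair that starts at 5359949 had tallies of 5 in replicate 1 and 4 in replicate 2 and overlapped by 4 nt. Toward the middle of the span, block 3 held a pair with tallies of 12 at 5399083 to 5399201 in replicate 1 and 11 at 5399072 to 5399132 in replicate 2. Although the tallies were close, the centres of its inner intervals lay 77 nt apart, the largest distance among the TNRC18 pairs. Its other pair, at 5396737 to 5396803 and 5396740 to 5396767, had tallies of 4 in replicate 1 and 7 in replicate 2. The 5'-most pair, at 5430195 to 5430237 and 5430223 to 5430258, had 3 in replicate 1 and 8 in replicate 2.

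**Figure D2:**
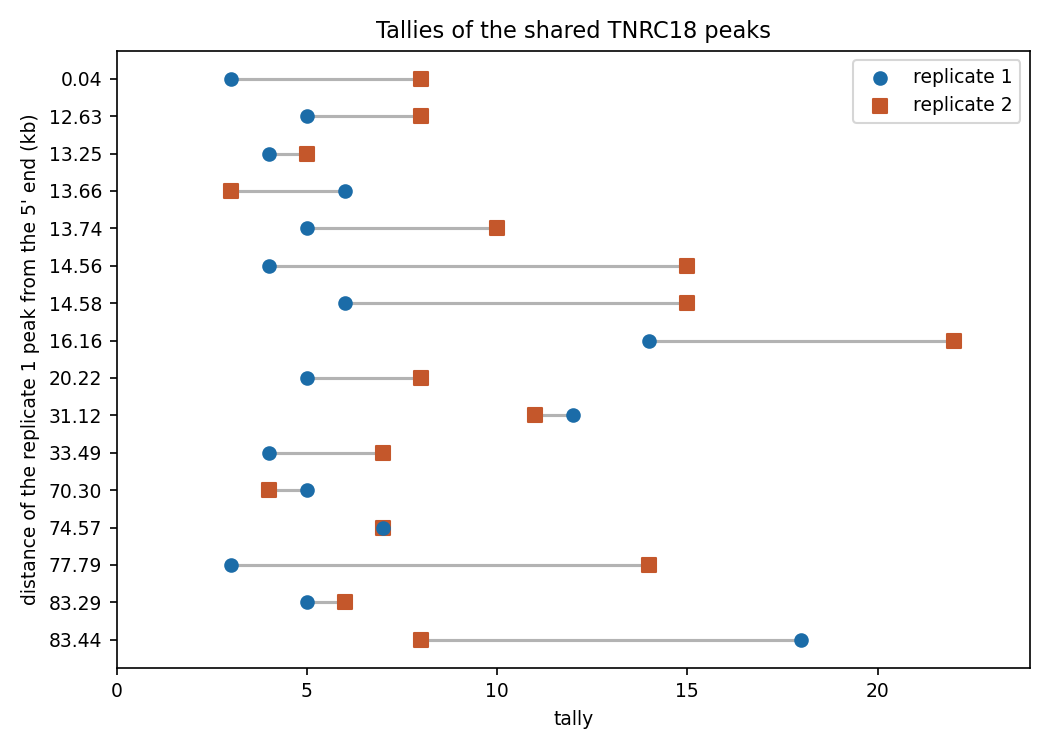
Tallies (horizontal axis) of the 16 shared TNRC18 peaks of replicate 1 (circles) and of their partners in replicate 2 (squares), ordered from the 5' end of the span (distance in kb, vertical axis). A single peak of replicate 2, with a tally of 15, is drawn as the partner of 2 peaks of replicate 1. Replicate 2 is higher in 11 pairs, replicate 1 in 4, and 1 pair is equal. Tallies are not scaled to the width of the peaks.

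Over these 16 pairs, the tally as listed was higher in replicate 2 in 11, higher in replicate 1 in 4 and equal in 1. The replicate 2 peak with a tally of 15 counts 2 times among the 11, against a touching pair with 6 and 4 in replicate 1. The medians below count it 2 times as well. The median log2 ratio of tallies, replicate 1 over replicate 2, was -0.67, beside 0.22 over all 9203 pairs of the lists. Tallies were not scaled to peak width. In the 4 pairs higher in replicate 1, its peak was also the wider, at 123 against 43, 119 against 61, 51 against 4 and 20 against 4 nt. Among the 11 pairs higher in replicate 2, the widths differed in both directions. The overlap of the paired peaks was between 4 and 50 nt, with 6 of the 16 overlapping by under 20 nt. Its median was 26 nt, beside 38 nt over all pairs. The median distance between the centres of paired inner intervals was 9.5 nt, and it was at most 10 nt in 9 of 16 pairs, or 56.2%, beside a median of 6.5 nt and 66.9% over all pairs. Pairs of 1 gene share their source and are not replicates, so these values describe the 2 libraries.

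TNRC18 took a larger part of the list in replicate 2. Its tallies summed to 148 in replicate 1, which was 0.0951% of the list, and to 276 in replicate 2, which was 0.207%. No interval is given for these shares, since the tally is not known to count independent molecules. The log2 ratio of these shares, replicate 1 over replicate 2, was -1.12. Among the 244 gene IDs with 10 or more peaks in each list and a span of 10 kb or more, 9 had a lower ratio and 234 a higher one, and the median was 0.05. Such a ratio was not particular to TNRC18. IDs picked for many peaks in replicate 2 lean toward a lower ratio by that choice alone. The 3 IDs with more peaks there, ENSG00000167548, ENSG00000169710 and ENSG00000196924, had ratios of -1.13, -1.39 and -1.15. The 1 ID tied with TNRC18, ENSG00000253729, had 0.08. Chromosome 7 as a whole held 5.75% of the tally in replicate 1 and 5.74% in replicate 2. Restricted to shared peaks, the log2 ratio of the shares was -0.59. The labels give 1 library for each replicate, so the difference has no further replicate and no test.

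**Figure D3:**
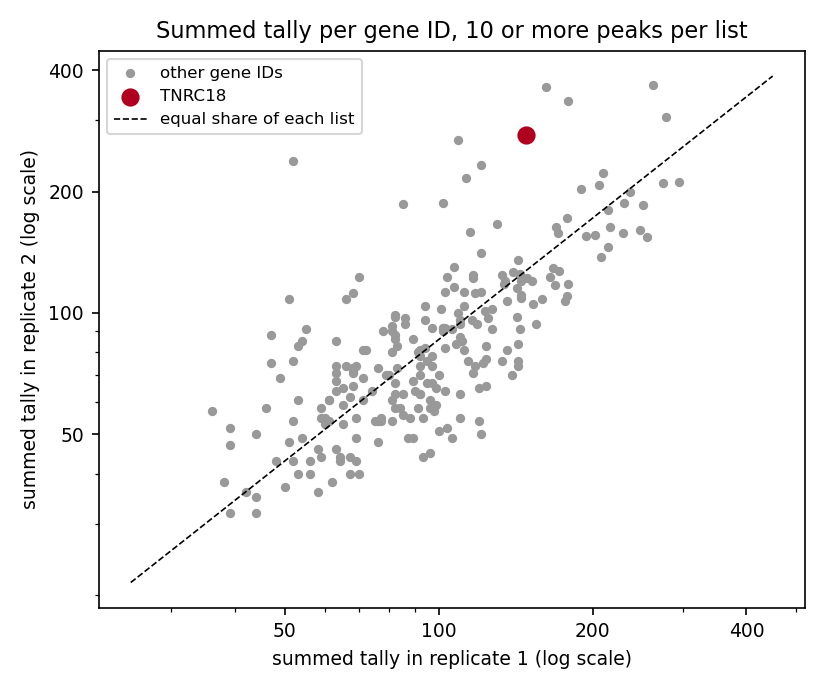
Summed tally of each of the 244 gene IDs with 10 or more peaks in each list and a span of 10 kb or more, in replicate 1 (horizontal, log scale) and replicate 2 (vertical, log scale). The dashed line marks an equal share of each list. TNRC18, at 148 and 276, lies above it.

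The ratio between the libraries was uneven along the span, here for tallies as listed. In block 1 replicate 1 had a summed tally of 6 and replicate 2 one of 32, which is a log2 ratio of -2.42. The 6 of replicate 1 came from 2 peaks with the lowest possible tally of 3. Block 4 had 6 and 9, a ratio of -0.58. Block 2 had 49 and 115, a ratio of -1.23, and block 5 had 49 and 88, a ratio of -0.84. Block 3 had 38 in replicate 1, 32 in replicate 2 and a log2 ratio of 0.25. As a part of the TNRC18 tally, block 2 held 33.1% in replicate 1 and 41.7% in replicate 2, whereas block 3 held 25.7% and 11.6%. The last 0.721 kb of the span, at its 3' end, had tallies summing to 31 in replicate 1 and 28 in replicate 2, for a log2 ratio of 0.15. The tallies of the whole list summed to more in replicate 1, by 0.22 on the log2 scale. Scaled to the lists, the log2 ratio was 0.03 in block 3 and turned to -0.07 in the last 0.721 kb. It was -2.63 in block 1, -1.45 in block 2, -0.80 in block 4 and -1.06 in block 5. The last 0.721 kb is 1 run of block 5 with gaps of under 1000 nt between peaks. The other such runs of this block with peaks in both lists had scaled ratios of -1.36, -1.50 and -2.28.

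Replicate 2 also listed stronger TNRC18 peaks. The median tally was 5 in replicate 1 and 7 in replicate 2, beside 4 in each whole list. The lowest possible tally, 3, was that of 8 of 26 peaks in replicate 1, or 30.8%, close to the 35.7% of the list. In replicate 2 it was that of 1 of 36, or 2.78%, beside 45.3% of the list. A tally of 10 or more was reached by 3 of 26 TNRC18 peaks in replicate 1, beside 3411 of the 25920 peaks of that list. In replicate 2 it was reached by 9 of 36, beside 2405 of the 25243 peaks of that list. Per 100 nt covered, the tally was 12.8 in replicate 1 and 21.0 in replicate 2, while the lists had 13.9 and 13.4.

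Several of the strong peaks of replicate 2 had no partner in replicate 1. Of its 9 TNRC18 peaks with a tally of 10 or more, 5 were shared, or 55.6%, beside 89.1% of the list's 2405 peaks of that tally. With a tally of 5 to 9, 8 of 21 were shared, or 38.1%, beside 56.6% of such peaks in the list. With a tally of 3 to 4, 2 of 6 were shared, beside 20.9%. In replicate 1 the shares were 3 of 3 with a tally of 10 or more, 8 of 11 with 5 to 9 and 5 of 12 with 3 to 4, beside 86.8%, 47.4% and 16.4% of the list. Recurrence was part of the choice of the gene, so these shares are not read as a result about it.

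The strongest unshared peak was in replicate 2, at 5410485 to 5410558 in block 2, where the tally was 13 and the p 9.69e-07. The nearest peak of replicate 1 was 421 nt away. It was followed by the peak at 5352513 to 5352576, with a tally of 11, which touched a shared peak of replicate 2 and lay 25 nt from the nearest peak of replicate 1. Peaks at 5347321 to 5347378 and 5417134 to 5417189 each had a tally of 10. A tally of 9 belonged to the peak at 5410845 to 5410890, so that 3 of the 4 peaks of replicate 2 in the 0.882 kb from 5410009 were unshared. In replicate 1 the strongest unshared peak, with a tally of 8, was the 3'-most one, at 5346658 to 5346719, 47 nt from the nearest peak of replicate 2. The next, at 5391004 to 5391077, had a tally of 7.

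Most unshared peaks lay within 1000 nt of a peak of the other list. In replicate 1, 8 of the 10 unshared peaks were within 500 nt of one and 9 within 1000 nt. In replicate 2, 15 of the 21 were within 500 nt and 20 within 1000 nt. The exceptions were the replicate 1 peak at 5389450 to 5389490, with a tally of 3, and the replicate 2 peak at 5348893 to 5348934, with a tally of 7. They lay 2092 and 1914 nt from the other list. Grouped into runs with gaps of under 1000 nt, the peaks of both lists formed 16 clusters. Of these, 14 held peaks of both libraries, 10 held a shared pair, and 1 was seen in each library alone. The 4 clusters seen in both libraries without a shared pair were block 4 and the clusters that start at 5391004, 5401225 and 5427318. The same counts over all unshared peaks of the lists were not computed. Within a list, neighbouring TNRC18 peaks were also close, with a median gap of 1546 nt in replicate 1 and 412 nt in replicate 2. Nearness to the other list is therefore not read as agreement between the libraries.

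Along the span, the TNRC18 peaks leaned toward the 5' end. With 0 at the 5' end and 1 at the 3' end, the median position of the shared peaks was 0.22 in replicate 1 and 0.24 in replicate 2. Over all peaks it was 0.4 in replicate 1 and 0.36 in replicate 2. With the peaks of both lists pooled it was 0.39, while the median over the 244 gene IDs was 0.80, and 13 of them had a lower value. The span was cut into 10 equal bins, numbered from the 5' end. Bin 2 had the most TNRC18 peaks, with 24.2% of them, against a mean of 4.34% in that bin over the other IDs. As a fullest bin this share was low: 210 of the 244 IDs had a larger share in their own fullest bin, and the median was 39.3%. Bin 2 held 7 of the 16 shared peaks of replicate 1. Bin 10, at the 3' end, held 22.6%, against 37.9% over the other IDs, and 3 of the 16 shared peaks. Bins 6 and 8 held no TNRC18 peak in either list. The spread over the span was part of the choice of the gene, so these positions are a description. They are relative to the peaks and not to the annotated gene.

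**Figure D4:**
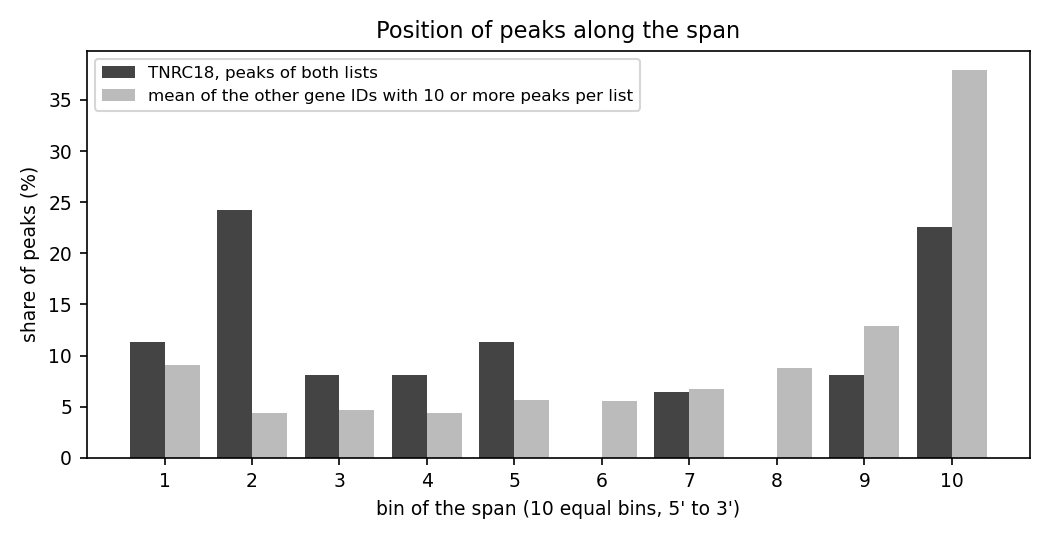
Share of peaks (%) in each of 10 equal bins of the span, 5' to 3', for TNRC18 with both lists together (dark) and as the mean over the other gene IDs with 10 or more peaks in each list (light). TNRC18 has 24.2% of its peaks in bin 2 and 22.6% in bin 10, where the other IDs average 37.9%.

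Among these 244 gene IDs, TNRC18 had 7.42 peaks per 10 kb over both lists, beside a median of 6.39, with 106 IDs higher. Its span was longer than that of 174 of them. None of the 69 IDs with a longer span had more peaks per 10 kb, the highest of them having 4.49. Of the 83 other IDs that span 50 to 150 kb, 5 had more, and their median was 3.46. These counts follow from the choice of a gene with many peaks. The top peak of TNRC18 held 12.2% of its tally in replicate 1 and 7.97% in replicate 2, beside medians of 16.9% and 16.4%. In replicate 1, 42 IDs had a lower value, and in replicate 2, 8 did. A gene with many peaks tends to have a lower value, and the number of peaks was part of the choice.

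The IDs whose peaks were spread most like those of TNRC18 were found by the sum of absolute differences in the share of peaks per bin, which can run from 0 to 2, over both libraries. The nearest was ENSG00000080603 on chromosome 16, with peaks from 30719007 to 30751315 and a difference of 0.40. It had 12 peaks in replicate 1 and 20 in replicate 2, with 3 shared in replicate 1. ENSG00000076003 on chromosome 2, with peaks from 136598121 to 136633967, followed at 0.43, with 11 and 14 peaks and 5 shared. The third was ENSG00000198563 on chromosome 6, with peaks from 31498098 to 31509744, also at 0.43, with 10 and 12 peaks and 6 shared. All of them had fewer peaks and shorter spans than TNRC18, at 32.3, 35.8 and 11.6 kb, and the likeness is in the spread of peaks alone.

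Within 200 kb of the span, 3 other gene IDs carried peaks. On the minus strand, ENSG00000075624 lay 137 kb beyond the 5' end of the TNRC18 span. It had 11 peaks in each list, 9 of them shared in each, with a summed tally of 163 in replicate 1 and 235 in replicate 2. On the plus strand, ENSG00000157954 had 6 peaks in replicate 1 and 8 in replicate 2, with summed tallies of 53 and 49. ENSG00000155034, on the minus strand, had 2 peaks in replicate 1, each with a tally of 3. The RefSeq table of GRCh38 used for names also lists a TNRC18 pseudogene on chromosome 7 and an antisense RNA gene, TNRC18-AS1. Every TNRC18 peak was on the minus strand, which follows from taking peaks by the ID of a minus-strand gene. Nothing is read from it about the antisense gene. Whether reads were shared with the pseudogene was not tested.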

How the data were processed

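CLIP-seq peak lists of 2 MSI2 libraries from NB4 cells were analysed, 1 list for each replicate. Build hg19 and the tools STAR 2.3.0e, Bowtie 1.0.0 and cutadapt are named in the submitters' processing notes, while the sources used here do not give the peak caller. The deposited lists give a p-value for each peak, under 0.05 throughout, and whether it was corrected is not given. Gene ID and tally were read from the peak name. Library depth is unknown.

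The gene and every measure were chosen with earlier results of these data known. Peaks were paired by overlap, with the largest overlap as partner. The overlap step was tested on the replicate 1 peaks and copies of them moved by known distances. Thin overlaps were not planted in that test. The named items were TNRC18 peaks, the 3 gene IDs with the most similar spread, and members of related gene lists and cell type markers. Those lists, and the markers of NB4 identity, were not analysed here, since the gene table used (0 rows with an Ensembl ID) does not link symbols to the files' IDs. Tools were pandas 2.3.3, NumPy 2.4.6, matplotlib 3.10.9 and SciPy 1.17.1 under Python 3.11.15. Alternatives changed the overlap, the threshold of the lists, merging and the replicates used.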

Additional observations from a re-analysis of the deposited data

How the results depend on the processing

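Gaps of 500 and 2000 nt between clusters, and all alternatives for the ratio of tally shares, were added after seeing the data. Among the 55 recomputed values, 33 stayed within the margin set for them and 22 did not. A reciprocal overlap of 50% left 8 shared peaks in replicate 1, with shares of 30.8% and 22.2% and rank 19. Peaks extended by 100 nt, a looser overlap by construction, gave shares of 80.8% and 61.1%, a median position of 0.37 and 5 shared peaks in the 3'-most bin of 10. The stronger 50% by p gave rank 10, a median position of 0.24 and 0.285% of the tally of replicate 2. A tally of 5 or more left 9 shared peaks, rank 21 and a median position of 0.24. Merging within 50 nt gave a median position of 0.31, and the shared peaks of replicate 2 gave 0.24. With 1 replicate left out, every peak of the other counts, giving 26 to 36 peaks, median positions of 0.36 to 0.40 and 5 to 9 peaks in that bin. The ratio of tally shares ran from -1.65 to -0.59. The cause of these shifts was not tested beyond what each setting changes by construction. No paired analysis was possible because both libraries belong to 1 group. If tallies are reads, a median of 5 or 7 leaves most TNRC18 peaks resting on few fragments.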
